A study of Mus musculus with 13 samples.

Results

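Where STAG1 and CTCF lie on the genome of proliferating NU1 cells, and how far the 2 sets of sites coincide, was read from 4 of the 12 deposited peak lists of a chromatin immunoprecipitation sequencing (ChIP-seq) series. They were chosen by their labels: STAG1 in proliferating cells and CTCF in proliferating cells, each with 2 biological replicates. NU1 is a wild-type mouse urothelial line that became immortal by repeated passage, so the replicates are of 1 line. Cells were grown in medium with EGF, serum, insulin, transferrin, T3, hydrocortisone and cholera toxin. The other 8 lists hold STAG2 in the same proliferating cells and STAG1, STAG2 and CTCF in cells made quiescent by confluence, 1 uM rosiglitazone, which activates PPAR gamma, and 0.5 uM erlotinib, an EGF receptor inhibitor. They did not enter the classes of sites described here and served as further readouts of them, except in 1 alternative that is named among the processing steps. Each precipitation took 25 ug of antibody and 550 ug of chromatin. Nothing beyond the words biological replicate says how the replicates were grown. ChIP-seq of these proteins gives no expression, so the urothelial identity could not be checked against its markers.

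Cohesin is a ring of SMC1A, SMC3 and RAD21 that takes either STAG1 or STAG2 as a further subunit. The ring extrudes DNA loops and holds sister chromatids together. CTCF is a zinc finger protein that binds a long, asymmetric motif, and cohesin extruding a loop is halted mainly when it meets CTCF's N-terminal side, so the orientation of the motif sets the direction in which a loop is anchored. STAG1 is the paralogue most tied to CTCF sites and domain borders, and STAG2 is lost in many bladder tumours.

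The STAG1 lists held 38857 and 50468 peaks and the CTCF lists 57528 and 55168. Median peak widths were 526 to 545 bp, and the median fold enrichment over background, as the authors' peak caller gave it, was 7.42 to 8.68. No read totals come with the lists, so sequencing depth is unknown. STAG1 replicate 2 stood apart. Of its peaks, 64.1% were matched in its own replicate, against 85.0% for STAG1 replicate 1 and 77.8% and 81.1% for the CTCF libraries. It also held 15027 peaks with no CTCF, 75.8% of which were not called in STAG1 replicate 1. The main counts and differences between classes are therefore also given without it.

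Most sites of STAG1 were sites of CTCF, and CTCF had many sites of its own. Peaks sharing at least 1 bp were joined over the 4 lists into 83338 sites. STAG1 was called in both its libraries at 31786 sites and CTCF in both its libraries at 43561. All 4 libraries had a peak at 25215 sites, called shared here, which were 79.3% of the STAG1 sites and 57.9% of the CTCF sites. At 3491 of the 31786 STAG1 sites neither CTCF library had a peak (11.0%). At 12459 of the 43561 CTCF sites neither STAG1 library had one (28.6%). The remaining sites of replicated STAG1 (3080) or replicated CTCF (5887) had a peak in 1 library of the other protein. Counts of sites have no test in this design.

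**Figure D1:**
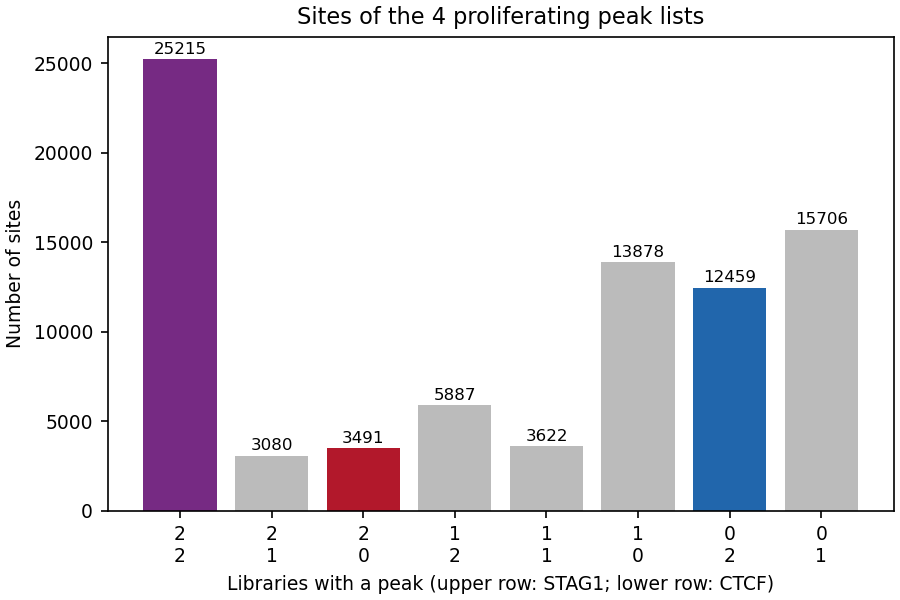
Number of sites (y axis) by how many of the 2 STAG1 libraries and of the 2 CTCF libraries had a peak there (x axis). The purple bar is the 25215 shared sites, the red bar the 3491 STAG1 sites without CTCF and the blue bar the 12459 CTCF sites without STAG1; grey bars are sites with unreplicated peaks, the tallest being 15706 sites of 1 CTCF library alone.

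The size of the class without CTCF depended on the libraries. With STAG1 replicate 2 alone it held 15027 sites, with STAG1 replicate 1 alone 6243, with CTCF replicate 2 alone 5646 and with CTCF replicate 1 alone 4469. The class without STAG1 held 20055 and 20977 sites with 1 CTCF library left, 16355 without STAG1 replicate 2 and 14590 without STAG1 replicate 1. Without STAG1 replicate 2 there were 27428 shared sites.

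Read per list, 72.2% of the peaks of STAG1 replicate 1 and 58.4% of those of replicate 2 matched both CTCF libraries. For CTCF, 49.1% of the peaks of each library matched both STAG1 libraries. The mean was 65.3% ± 9.76 (SD, n = 2) for STAG1 and 49.1% ± 0.028 (n = 2) for CTCF, a difference of 16.2 percentage points. Both STAG1 values lay above both CTCF values (exact permutation p = 0.333, two-sided, the smallest that 6 arrangements can give, so no comparison of 2 libraries with 2 could reach 0.05). Without STAG1 replicate 1 the difference was -0.320 points, without STAG1 replicate 2 it was 18.3 points, and with the 20000 highest peaks of every list it was 0.445 points. The difference between the proteins thus did not hold at equal list lengths.

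At shared promoters the median STAG1 summit lay to the 3′ side of the CTCF motif's centre, and the median CTCF summit within 2 bp of it, with a wide spread over promoters. The core of that motif (CC, any 3 bases, AGG, any base, GGC) was searched on both strands in the 32851 promoter windows of RefSeq for GRCm38.p6, which run from 250 bp before to 50 bp after a gene's start. Windows overlapped by a shared site held it in 723 of 7991 cases, 9.05%, against 3.43% of all windows. The share was 2.01% at windows with a STAG1 site without CTCF (20 of 993) and 3.56% at windows with a CTCF site without STAG1 (11 of 309). At windows with no peak in any of the 4 lists it was 1.06% (196 of 18476). A match to these letters is no proof of binding.

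The following promoter segments show why the motif's direction could be read. They are the 6 shared sites with the highest mean rank among promoters with 1 match, each printed along the motif's strand with the match in capitals and 40 bases on either side (RefSeq promoter table, GRCm38.p6).
Mterf1a, chr5:3893994-3894085, + strand: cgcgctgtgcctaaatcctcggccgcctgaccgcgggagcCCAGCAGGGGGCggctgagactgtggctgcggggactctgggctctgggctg
Nob1, chr8:107425096-107425187, - strand: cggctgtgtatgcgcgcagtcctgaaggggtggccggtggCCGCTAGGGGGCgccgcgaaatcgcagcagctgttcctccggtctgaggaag
Cluap1, chr16:3908906-3908997, - strand: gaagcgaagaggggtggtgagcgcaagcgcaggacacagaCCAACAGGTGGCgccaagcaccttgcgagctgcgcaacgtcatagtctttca
AA467197, chr2:122637752-122637843, + strand: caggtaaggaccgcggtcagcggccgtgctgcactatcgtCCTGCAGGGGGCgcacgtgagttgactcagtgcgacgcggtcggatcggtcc
Rab32, chr10:10558240-10558331, - strand: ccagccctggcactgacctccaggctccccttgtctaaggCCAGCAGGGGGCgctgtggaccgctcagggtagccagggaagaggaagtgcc
Zfp638, chr6:83914231-83914322, - strand: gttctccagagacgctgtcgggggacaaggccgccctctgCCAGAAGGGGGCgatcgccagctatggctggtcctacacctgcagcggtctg

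Single promoters varied around this pattern. At AA467197 the STAG1 summits lay 37.5 and 13.5 bp to the 3′ side of the motif's centre and the CTCF summits at -2.5 and -20.5 bp, that is to its 5′ side. At Nob1, which encodes a ribosome assembly nuclease, STAG1 lay at 23.5 and 24.5 bp and CTCF at 24.5 and -4.5 bp. At Cluap1, a gene of ciliary transport, all 4 summits lay on the 5′ side, STAG1 at -18.5 and -42.5 bp and CTCF at -0.5 and -14.5 bp. STAG1 was thus to the 3′ side of both CTCF summits at AA467197, overlapped them at Nob1 and was to their 5′ side at Cluap1.

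Over 368 motif matches with all 4 summits within 200 bp, the median STAG1 summit lay 19.5 bp to the 3′ side of the motif's centre in replicate 1 and 19.5 bp in replicate 2. The median CTCF summit lay at 0.5 and 1.5 bp. The difference of these medians was 18.5 bp (exact permutation p = 0.333, two-sided, the smallest possible). Taken match by match, the median difference of STAG1 and CTCF positions was smaller, 13.5 bp. The 2 STAG1 summits of a match lay a median of 23 bp apart and the 2 CTCF summits 15 bp, so single matches do not resolve the shift. STAG1 summits lay on the 3′ side at 70.1% and 67.1% of the matches, and CTCF summits at 51.4% and 51.9%. Within 10 bp of the centre lay 15.5% and 14.7% of the STAG1 summits and 29.3% and 26.4% of the CTCF summits. Both STAG1 summits lay to the 3′ side of both CTCF summits at 148 of the 368 matches (40.2%), and to the 5′ side of both at 39 (10.6%). The difference of medians stayed between 18 and 19.8 bp under every alternative run. These included summits within 100 bp of the motif and a spelling that ends in AG, any base, GGGC. Most alternatives read largely the same matches, and none split them by the direction of the gene, where the difference was 20 and 8.5 bp (below).

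**Figure D2:**
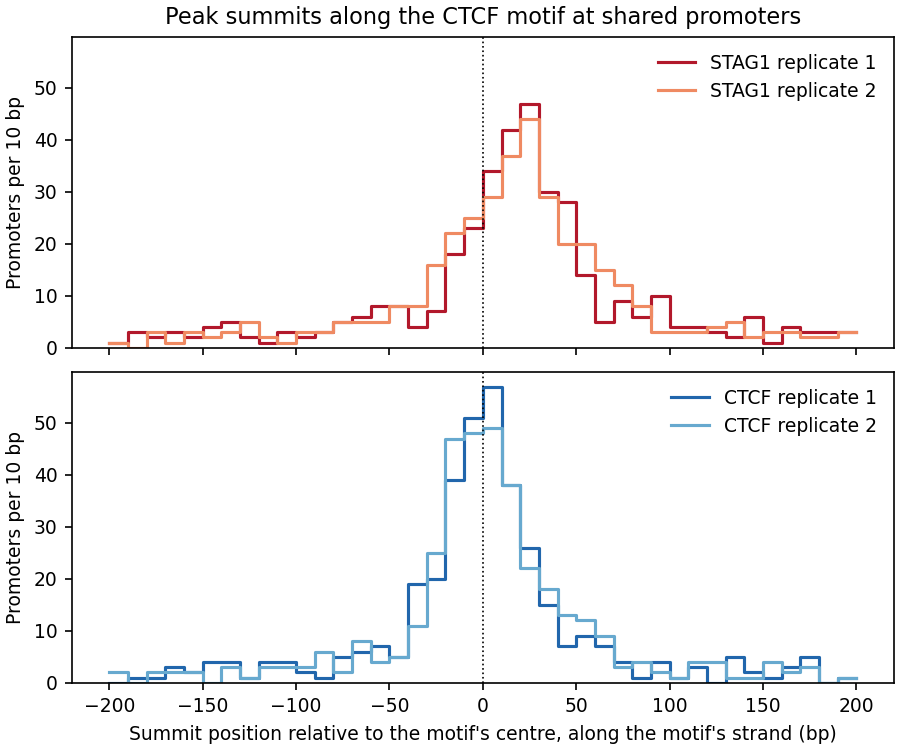
Number of matches per 10 bp (y axis) against the position of each library's summit along the strand of the CTCF motif, in bp from its centre (x axis, positive to the 3′ side), at 368 matches in shared promoters. STAG1 (upper panel) has its median at 19.5 bp in both replicates, CTCF (lower panel) at 0.5 and 1.5 bp.

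The 8 lists not used to find these matches gave the same order. The median summit of the 6 other STAG libraries lay between 14.5 and 19.5 bp on the 3′ side, with 14.5 and 16.5 bp for STAG2 in proliferating cells. The 2 quiescent CTCF libraries lay at -0.5 and 0.5 bp. The STAG mean exceeded the CTCF mean by 17.2 bp (exact permutation p = 0.0357, two-sided, the smallest of 28 arrangements), a test chosen after the first 4 libraries were seen. It took each library as independent, but these were replicate pairs of 1 line. With pairs as units it could not reach 0.05. The CTCF libraries were quiescent only, while the STAG libraries mixed STAG1 with STAG2 and both states. Leaving out a STAG library gave 16.7 to 17.7 bp (exact permutation p = 0.0476), and leaving out CTCF quiescent replicate 1 or 2 gave 16.7 or 17.7 bp with an exact permutation p = 0.143, the smallest possible with 1 CTCF library. The 8 libraries were read at the same 368 matches, which were chosen to be near summits of the first 4. Their medians rest on 341 to 360 of these matches, depending on the library.

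The position also differed with the direction of the gene. At 235 matches on the same strand as the gene the median STAG1 summit lay at 26.5 and 24.5 bp and the median CTCF summit at 3.5 and 7.5 bp. At 133 matches on the opposite strand STAG1 lay at 1.5 and -3.5 bp and CTCF at -6.5 and -12.5 bp. In both sets STAG1 lay further to the 3′ side than CTCF, by 20 and 8.5 bp. In each library the median was lower, that is nearer to the 5′ side of the motif, in the opposite-strand set. The difference between the 2 sets was not tested.

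Without regard to direction, STAG1 and CTCF summits lay slightly further apart than those of replicates, less so against the STAG1 than against the CTCF replicates. The median distance between matching peaks was 35 bp for the STAG1 replicates and 27 bp for the CTCF replicates. Across the proteins it was 36, 40, 40 and 42 bp, a mean of 39.5 ± 2.52 bp (SD over 4 pairs that share libraries). The mean across less the mean within was 8.5 bp (exact permutation p = 0.333, one-sided, the smallest of 3 arrangements). It lay between 3.00 and 14.0 bp when 1 library was left out. Within 100 bp lay 74.6% to 79.0% of the pairs across proteins, against 78.7% for the STAG1 and 85.7% for the CTCF replicates.

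Strong peaks of either protein nearly always had the other. In the highest decile of fold enrichment, 99.2% and 99.7% of the peaks of the STAG1 lists had CTCF in both libraries, and 2 peaks in each library matched none. Of CTCF peaks in the highest decile, 98.2% and 97.1% matched both STAG1 libraries, and 15 and 27 matched none. In the lowest decile the STAG1 shares were 44.8% and 17.0% and the CTCF shares 26.7% and 28.3%. The 2 STAG1 libraries thus differed mainly among weak peaks, and the 2 CTCF libraries ran together.

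**Figure D3:**
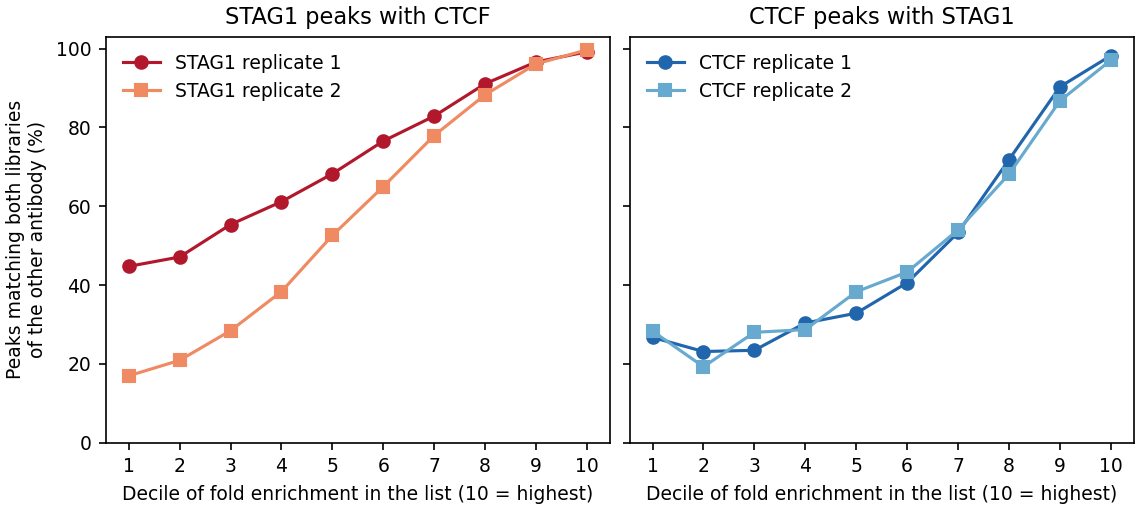
Share of peaks that match both libraries of the other antibody (y axis, percent) by decile of fold enrichment within each list (x axis), for STAG1 (left) and CTCF (right). The share ends at 97.1% to 99.7% in the highest decile and at 17.0% to 44.8% in the lowest, with STAG1 replicate 2 (squares, left) below replicate 1 among weak peaks.

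The 3 shared sites with the highest mean rank lay at Ivd and, between genes, 6338 bp from Mab21l3 and 15852 bp from Rhbdd2. The 10 highest of those at gene ends, here 1 kb to either side of a protein-coding gene's start or finish, are named next. At the 3′ end of Ivd, the isovaleryl-CoA dehydrogenase gene of leucine breakdown, the fold was 85.3 and 75.4 for STAG1 and 89.8 and 110 for CTCF (chr2:118883044-118883900, mm10). At the 5′ end of Mycn, a MYC family oncogene, it was 76.3 and 81.3 for STAG1 and 77.8 and 80.8 for CTCF. At the 5′ end of Lratd1 STAG1 had 71.9 and 89.3 and CTCF 76.8 and 82.8. These 3 were near the top of all 4 lists. Sites of this kind also lay at Scnn1g, which encodes an epithelial sodium channel subunit, at Kiss1r, the kisspeptin receptor, at Adamtsl5, Cdkn2aipnl and Gpr20, at Piezo1, a mechanically gated ion channel, and at Hoxa9, a homeobox gene. The site near Mab21l3 had 88.3 and 77.3 for STAG1 and 91.8 and 101 for CTCF.

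The order of the shared sites was looser between the proteins than between replicates. Ranks of fold enrichment were taken among the 25215 shared sites, so that the 4 lists had equal length. Spearman's rho over sites was 0.798 for the STAG1 replicates and 0.887 for the CTCF replicates, and 0.520 to 0.656 for the 4 pairs across proteins. These describe sites that share libraries, and they carry no p. The median rank difference was 9.91 and 7.84 percentage points between replicates and 14.3 to 17.6 points across proteins.

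Many shared sites leaned to 1 protein. Both STAG1 ranks lay above both CTCF ranks at 8049 sites (31.9%) and below both at 7428 (29.5%), and they overlapped at 9738. The mean ranks differed by at least 25 points at 3013 of the first and 3426 of the second set. With 2 ranks against 2, part of both sets can arise from the scatter of replicates alone, which was not tested. Without STAG1 replicate 1 these sets held 12437 and 11430 sites and without replicate 2 11899 and 10915, since 1 STAG1 rank then had to lie outside the CTCF ranks.

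**Figure D4:**
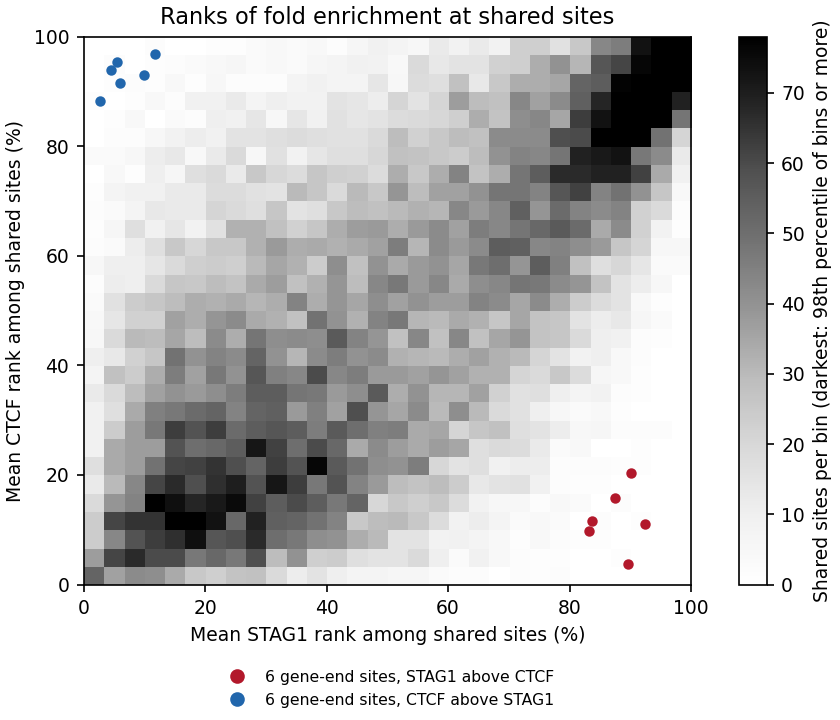
Density of the 25215 shared sites by mean rank of fold enrichment in the STAG1 (x axis) and CTCF libraries (y axis), in percent of the shared sites; 100 is the highest. Red points are the 6 gene-end sites that lean furthest to STAG1, among them Ggn with Spred3, and blue points the 6 that lean furthest to CTCF, among them Wwox; the darkest bins lie at the upper right and the lower left.

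Among shared sites at gene ends, the one that leaned furthest to STAG1 lay at the 5′ ends of Ggn and Spred3 and overlapped both genes (chr7:29169002-29170831). Spred3 encodes an inhibitor of Ras and MAPK signalling. The fold at this site was 34.4 and 38.9 for STAG1 and 4.49 and 4.49 for CTCF. At Tbl1xr1, a subunit of the NCoR corepressor complex, STAG1 had 67.9 and 31.4 and CTCF 5.20 and 6.33. At Chd3, a chromatin remodeller of the NuRD complex, STAG1 had 38.7 and 35.8 and CTCF 5.09 and 9.62. Zbtb2, Gtdc1 and Oga, which encodes the enzyme that removes O-GlcNAc, completed the 6. Of the 6 sites 5 lay at a 5′ end, and the strand of Chd3 is not in the table used. The 6 sites were 1319 to 2173 bp wide, against a median of 843 bp at shared sites. The STAG1 and CTCF folds are those of the highest peak in each library, which may lie apart within a site. In quiescent cells STAG1 again had 22.1 to 49.4 at these 6 sites and CTCF 4.49 to 11.2.

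Among shared sites at gene ends, the one that leaned furthest to CTCF lay at an end of Wwox, a gene at a common fragile site (chr8:114439464-114440749). Its fold was 5.25 and 4.50 for STAG1 and 50 and 71.3 for CTCF. At Kdm1a, the histone demethylase LSD1, STAG1 had 4.33 and 5.25 and CTCF 53.4 and 53.9. At Mapk9, the kinase JNK2, STAG1 had 5.34 and 4.57 and CTCF 49.0 and 48.3. Ttc5, Ttyh1 and Meaf6 completed the 6. These sites were 689 to 1529 bp wide, and here too the peaks of the 2 proteins may lie apart within a site. In quiescent cells CTCF had 29.4 to 76.3 at these sites. STAG1 had 3.75 to 9.98 there, and no peak at Ttc5, in those libraries. STAG2 in proliferating cells had 5.50 to 15.0 where it was called, and its replicate 2 had no peak at Ttc5.

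Features that were not used to rank the sites are given for the 2 leaning sets and the rest. Both STAG2 libraries of proliferating cells had a peak at 96.0% of the sites leaning to STAG1, at 84.2% of those leaning to CTCF and at 86.1% of the rest. Both quiescent CTCF libraries had a peak at 88.2%, 97.6% and 89.6%. Gene ends held 34.8%, 38.6% and 35.7% of them. Of the promoter windows under these sites, the CTCF core was found in 155 of 2617 leaning to STAG1 (5.92%), in 352 of 2312 leaning to CTCF (15.2%) and in 216 of 3065 of the rest (7.05%), a split chosen after the data were seen. No test was run on these shares. The sets also differed in strength. Median STAG1 fold was 19.6 and 19.4 at sites leaning to STAG1, 8.98 and 10.6 at those leaning to CTCF and 11.6 and 11.5 at the rest. Median CTCF fold was 14.3 and 10.3, 25.45 and 24.95, and 13.8 and 11.5. The shares were not compared at equal fold.

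STAG1 sites without CTCF were weak by the standard of their lists. Their median fold was 5.99 and 6.49 in the 2 STAG1 libraries, against 12.3 and 13.5 at shared sites. Their median width was 572 bp against 843 bp. The highest sites of the class lay far from any gene, 392327 bp from Prl5a1, with 31.4 and 26.9, and within Hdgf, which encodes a heparin-binding growth factor, with 20.8 and 31.3. At the 5′ ends of Zbed6 and Zc3h11a, a zinc finger gene pair in which Zbed6 lies inside its host, STAG1 had 18.7 and 24.2. At the 5′ end that the gene table gives for Ube2b, a ubiquitin-conjugating enzyme of the RAD6 family, it had 15.8 and 21.0. At Hes1, a repressor in Notch signalling, it had 11.3 and 21.1. Bdh1, Tnfrsf23, Ccdc82 with Jrkl, Tbl1x and Cox17 followed with 10.0 to 16.0 in replicate 1 and 16.0 to 21.5 in replicate 2.

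The 3 promoters of this class with the highest mean ranks, among those whose site covers the centre of the promoter window, are printed next. They run from 200 bases upstream to the gene's start, along the gene. None holds the CTCF core, but this does not set them apart, since only 9.05% of shared windows held it. Capitals mark letters of 4 other motifs searched after the data were seen (GGGGCGGGG of GC boxes; GCGC, any base, TGCGC of NRF1; ACTACA, any 2 bases, TCCC of ZNF143; TGANTCA of AP-1).
Zbed6, chr1:133660886-133661085, - strand: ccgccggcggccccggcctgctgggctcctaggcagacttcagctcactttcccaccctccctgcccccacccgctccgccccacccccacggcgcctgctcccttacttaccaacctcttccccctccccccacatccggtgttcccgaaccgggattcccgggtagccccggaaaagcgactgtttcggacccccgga
U2af1l4, chr7:30563140-30563339, + strand: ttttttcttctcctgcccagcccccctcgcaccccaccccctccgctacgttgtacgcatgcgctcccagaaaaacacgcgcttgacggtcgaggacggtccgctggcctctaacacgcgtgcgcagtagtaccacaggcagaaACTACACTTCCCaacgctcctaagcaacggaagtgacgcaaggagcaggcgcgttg
Igf2r, chr17:12769707-12769906, - strand: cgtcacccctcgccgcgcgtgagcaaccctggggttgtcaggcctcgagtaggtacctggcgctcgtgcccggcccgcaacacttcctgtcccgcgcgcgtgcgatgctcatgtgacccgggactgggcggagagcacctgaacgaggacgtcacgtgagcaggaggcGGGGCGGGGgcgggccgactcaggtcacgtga

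At Zbed6 none of the 4 was found. The U2af1l4 segment, shared with Psenen, a subunit of gamma-secretase, holds a ZNF143 match, and that of Igf2r, the imprinted receptor for IGF2, a GC box. The fold of STAG1 was 13.6 and 23.7 at U2af1l4 and 13 and 23.5 at Igf2r. At U2af1l4 no STAG2 library in either state had a peak, while both quiescent STAG1 libraries did, with 16.3 and 20.9. At Igf2r all 4 STAG2 libraries had peaks of 14.5 to 20.9, and both quiescent CTCF libraries were called, with 4.99 and 7.49. Over all promoter windows of the class, the ZNF143 letters were in 4.83%, against 3.05% at shared and 2.27% at CTCF windows without STAG1 and 1.81% of all windows. For NRF1 these shares were 10.9%, 10.5%, 3.56% and 4.6%, for GC boxes 18.3%, 25.4%, 10.7% and 11.4%, and for AP-1 7.45%, 4.02%, 5.18% and 7.81%. Windows with no peak held the ZNF143, NRF1, GC box and AP-1 letters in 0.541%, 0.557%, 2.80% and 10.0% of cases. The first 3 were thus more frequent, and AP-1 less frequent, in windows of each class than in windows with no peak.

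CTCF sites without STAG1 reached higher in their lists. Their median fold was 6.99 and 6.79, against 17.4 and 14.3 at shared sites, and the highest stood at percentiles 95.8 and 97.1 of the 2 CTCF lists. At the 5′ end of Pde4a, a phosphodiesterase that degrades cAMP, CTCF had 34.9 and 54.4 (chr9:21165834-21166639). At the 3′ end of Rnf135, a ubiquitin ligase gene, it had 33.6 and 39.1. Within Wfdc1, a gene of a secreted protease inhibitor family, it had 40.9 and 33.4. At Pde4a all 6 other STAG libraries had weak peaks of 4.33 to 7.98, while at Rnf135 only STAG2 replicate 1 did, with 8.62. Ctsg, Mettl17, Fam243, Dusp15, Lrcol1, Klhdc9 with Pfdn2, Ext2 and Lsamp followed, with 17.5 to 29.4 in CTCF replicate 1 and 24 to 37.4 in replicate 2. The 1 printed promoter of this class with a motif, that of Spef2, had CTCF folds of 6 and 5.33.
Spef2, chr15:9748918-9749009, - strand: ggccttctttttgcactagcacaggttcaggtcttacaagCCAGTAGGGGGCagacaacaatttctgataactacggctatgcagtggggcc

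The 3 classes lay in different places. Of shared sites 36.2% lay at gene ends, of STAG1 sites without CTCF 19.2% and of CTCF sites without STAG1 8.58%, against 20.5% of all 83338 sites. Within genes but away from their ends lay 34.0%, 40.7% and 54.0%. Strands were taken from the promoter table. The CTCF sites without STAG1 at gene ends were often at 3′ ends. Of the 1069 such sites 43.1% touched a 5′ end and 38.3% a 3′ end only. For the 9135 shared sites these shares were 70.8% and 9.93%, and for the 670 STAG1 sites without CTCF 71.2% and 9.70%. The strand was missing for 18.6% to 19.2%. The median distance to the nearest shared site was 14487 bp for STAG1 without CTCF and 11974 bp for CTCF without STAG1.

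Per library, peaks with neither library of the other antibody lay less often at gene ends than peaks with both. The shares were 15.5% and 33.6% in STAG1 replicate 1, 16.0% and 35.0% in replicate 2, 8.12% and 35.0% in CTCF replicate 1 and 8.60% and 36.6% in CTCF replicate 2. The mean differences were -18.5 and -27.4 points (exact two-sided permutation by sign flips, p = 0.5 each, the lowest that 2 libraries allow). For STAG1 the difference was 8.002 points with 20000 peaks in every list and -3.43 points with peaks matched by summits within 200 bp. For CTCF it kept its sign under all alternatives run, but was -7.996 points with 20000 peaks in every list and -14.8 points with the summit match.

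STAG2, whose libraries did not define the classes, was called far more often at STAG1 sites without CTCF than at CTCF sites without STAG1. In proliferating cells STAG2 had a peak at 95.1% and 90.3% of the shared sites, at 83.9% and 79.2% of the STAG1 sites without CTCF and at 10.6% and 6.4% of the CTCF sites without STAG1. The last 2 classes differed by 73.4 and 72.8 points, and their values did not overlap (exact two-sided permutation by sign flips, p = 0.5, the lowest possible). The difference was 27.4 points without STAG1 replicate 1 and 44.4 without replicate 2, when single STAG1 lists defined the classes. Both STAG2 libraries had a peak at 2568 of the 3491 STAG1 sites without CTCF (73.6%). Of the 12459 CTCF sites without STAG1, 9918 (79.6%) had no peak in any of the 6 other STAG libraries.

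In quiescent cells the classes kept their make-up in part. Quiescent STAG1 had a peak at 92.3% ± 0.519 (SD, n = 2) of shared sites, at 52.7% ± 4.15 of STAG1 sites without CTCF and at 4.25% ± 0.119 of CTCF sites without STAG1. Quiescent CTCF had a peak at 94.8% ± 2.52, 12.3% ± 6.4 and 81.3% ± 9.76 of them. For quiescent STAG2 these shares were 87.7% ± 2.1, 64.8% ± 2.21 and 3.95% ± 1.64. Neither quiescent CTCF library had a peak at 2788 of the STAG1 sites without CTCF (79.9%). At 747 of these 3491 sites (21.4%) all 6 other STAG libraries had a peak and no quiescent CTCF library did. Shared sites exceeded STAG1 sites without CTCF by 39.6 points for quiescent STAG1, which was 17.6 points with 20000 peaks per list, 65.0 without STAG1 replicate 1 and 50.1 without replicate 2. Shared sites exceeded CTCF sites without STAG1 by 13.6 points for quiescent CTCF, which was 28.1 and 24.2 points without CTCF replicate 1 and 2. Each had an exact sign-flip permutation p = 0.5, the smallest possible. The classes compared also differed in strength in proliferating cells. STAG1 sites without CTCF had a median STAG1 fold of 5.99 and 6.49, against 12.3 and 13.5 at shared sites. CTCF sites without STAG1 had a median CTCF fold of 6.99 and 6.79, against 17.4 and 14.3. No comparison at equal fold was made.

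**Figure D5:**
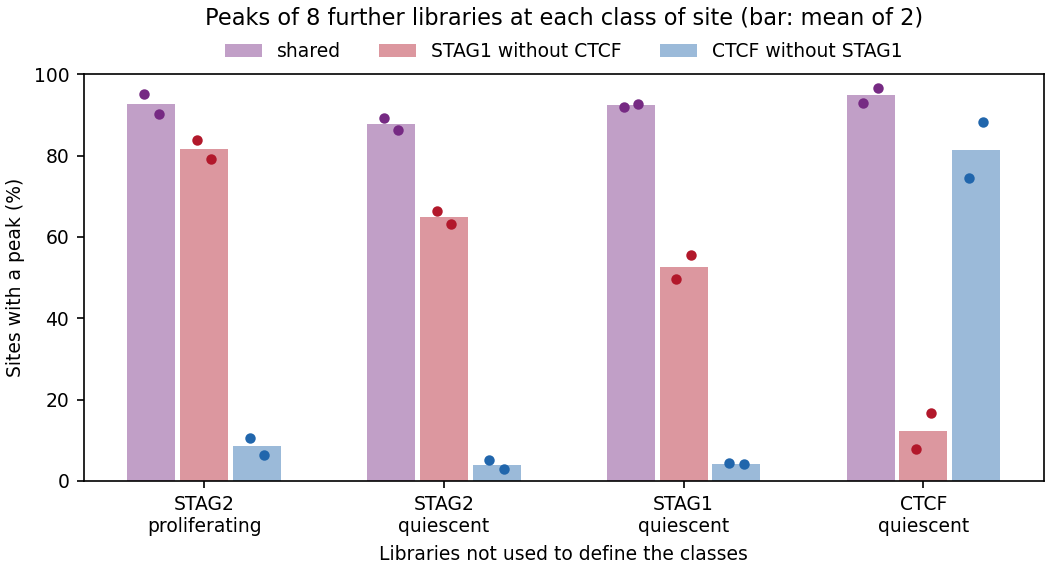
Share of the sites of each class with a peak (y axis, percent) in 8 libraries that did not define the classes (x axis, by antibody and state); bars are the mean of 2 libraries and dots the libraries. STAG2 in proliferating cells has 83.9% and 79.2% at STAG1 sites without CTCF and 10.6% and 6.4% at CTCF sites without STAG1, and quiescent CTCF has the reverse order.

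Sites were counted in 100 kb bins, and the bins named here are those with the highest counts of each class, with no test. For STAG1 sites without CTCF the bin with most, 11, lay over Smad3, a transcription factor of TGF-beta signalling, on chromosome 9 from 63700001 to 63800000, and all 11 overlapped the gene. STAG1 fold was 4.40 to 17.5 and 4.00 to 25.3 at them, both STAG2 libraries were called at 10 and a quiescent CTCF library at 2. The same bin held 4 shared sites. The next bins, with 8 each, lay at Sik1, a salt-inducible kinase, and at Smad7, an inhibitor of the same TGF-beta pathway. Only 2 of the 8 sites overlapped Sik1, and 7 overlapped Smad7. CTCF sites without STAG1 were most numerous in a bin that overlapped Bptf and Nol11, with 12, of which 3 overlapped Bptf. BPTF is a subunit of the NURF remodeller. CTCF fold there was 4.20 to 17.7 and 4.33 to 16.3, no site had STAG2 in both libraries, and 10 had both quiescent CTCF libraries. The next bin, with 11, overlapped part of Itgb4, which encodes the beta-4 integrin of hemidesmosomes, and H3f3b, a histone H3.3 gene. Only 2 of its 11 sites overlapped Itgb4. Shared sites were densest on chromosome 10 from 80100001 to 80200000, with 17 among genes such as Stk11 and Cirbp.

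Gene lists were counted by the class of site at their gene ends, beside all 21887 protein-coding genes, of which 43.3% had a shared site, 3.5% a STAG1 site without CTCF and 5.14% a CTCF site without STAG1. Of the 48 ribosomal protein genes 33 had a shared site, 3 a STAG1 site without CTCF and 10 (20.8%) a CTCF site without STAG1. The 11 sites at these 10 genes were at a 3′ end in 6 cases, at a 5′ end in 3 and of unknown strand in 2, and 8 of the genes also had a shared site. At the 3′ end of Rpl23 CTCF had 14.5 and 11.5, and at that of Rpl37 12.8 and 13. Both quiescent CTCF libraries had a peak at 9 of the 11 sites, and a proliferating STAG2 library at 2.

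In the other lists the share with CTCF without STAG1 ran from 0 to 6.67%, around that of all genes. All 32 genes of immediate early and growth signalling had a shared site, 4 a STAG1 site without CTCF (Spry2, Myc, Maff and Klf6) and 2 a CTCF site without STAG1 (Tgfa and Maff). At Maff, a small bZIP factor, separate sites of the 2 kinds lay near its 3′ end, STAG1 with 5.33 and 4.33 and CTCF with 7.67 and 7.67. Of 46 cell cycle genes listed as targets of the DREAM repressor 29 had a shared site, 5 a STAG1 site without CTCF (Ccnb2, Mcm3, Kif22, Gmnn and Top2a) and 0 a CTCF site without STAG1. At Ccnb2, cyclin B2, STAG1 had 6.90 and 10.3, and at Mcm3, a subunit of the replicative helicase, 6.80 and 9.60. Mcm3 and Kif22 also had a shared site at a gene end. Of 20 stress response genes 14 had a shared site and 4 a STAG1 site without CTCF. The latter were Arrdc4, an arrestin family gene, with 10.0 and 16.9, Hspa5, the chaperone BiP, with 6.65 and 13, Hexim1, an inhibitor of P-TEFb, with 6.38 and 5.37, and Arrdc3. Hexim1 also had a shared site at a gene end. Of 21 genes of CDK inhibitors and growth arrest 18 had a shared site, and Rb1 had a STAG1 site without CTCF with 6.72 and 6.86.

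Of 30 urothelial and epithelial genes 19 had a shared site, 3 a STAG1 site without CTCF and 2 the reverse. Krt18, Krt20 and Krt14, keratins of different urothelial layers, had STAG1 without CTCF, with 5.64 and 9.63, 7.55 and 6.35, and 4.49 and 6.99. Of these, Krt18 also had a shared site at a gene end. Foxa1, a luminal transcription factor, had CTCF without STAG1 with 4.99 and 5.49, and Upk3b, a uroplakin, with 5.99 and 4.49. No STAG2 or quiescent library had a peak at either site. Of 39 Hox genes 19 had a shared site. Hoxb5, Hoxb4 and Hoxb2 had STAG1 without CTCF, and Hoxd10 and Hoxc6 the reverse. Hoxb5 and Hoxb2 also had a shared site at a gene end, and Hoxb4 did not. Of 29 imprinted genes found, 14 had a shared site, 0 had CTCF without STAG1, and Igf2r, Peg3 and Usp29 had STAG1 without CTCF, the last 2 at 1 common site with 5.17 and 4.67. At that common site no STAG2 or quiescent library had a peak. Peg3 and Usp29 also had a shared site at a gene end. Of 24 markers of other cell types 7 had a shared site and Snap25, a neuronal gene, had STAG1 without CTCF with 4.86 and 4.86. These counts have no test and single genes have 2 values for each protein.

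Among 23 genes of cohesin, its regulators and CTCF itself, 7 had a shared site. At an end of Stag2 the fold was 25.3 and 32.3 for STAG1 and 47.7 and 40.3 for CTCF. At the 5′ end of Smc3, a core ring subunit, it was 25.4 and 36.6 for STAG1 and 34.9 and 43.1 for CTCF. At the 5′ end of Ctcf it was 18 and 22.1 for STAG1 and 30.7 and 45.6 for CTCF. Pds5a and Pds5b, which regulate how long cohesin stays on DNA, had 42.4 and 15.0 and 35.8 and 37.3 for STAG1. Esco1, an acetyltransferase of SMC3, and Mau2, part of the loader, completed the 7. Hdac8, the SMC3 deacetylase, had STAG1 without CTCF at its 5′ end, with 11.0 and 8.48. Wapl, the release factor, had CTCF without STAG1 at its 3′ end, with 4.94 and 8.40. Stag1, Rad21 and Nipbl had no peak of the 4 lists at their gene ends.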

How the data were processed

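Peak lists of STAG1 and CTCF in proliferating NU1 cells, 2 libraries each, were compared. MACS2, BWA, Picard, HOMER and bcl2fastq appear, per the submitters' processing notes, beside build mm10, without versions. For each library the authors deposited 1 list, with a fold enrichment over background (a ratio), a display score, -log10 p-values and q-values and a summit offset for each peak. The sample used as background is titled input but labelled IgG, so what the folds are relative to was not settled. Folds were used within a list, as ranks among shared sites and, in 1 check of replicate numbers, as log2 differences between replicates. Folds of different lists are printed side by side, but the leaning of sites was judged by rank.

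Peaks sharing 1 bp were joined into sites (Python 3.11.15, numpy 2.4.6, pandas 2.3.3). A site's fold in a library is that of its highest peak there. Genes and promoter sequences came from RefSeq tables of GRCm38.p6, the same assembly as mm10; no genome sequence was used, so the motif search covers promoters only. Gene ends reached 1 kb to each side. Exact permutations were over libraries. The scripts were tested on simulated peaks with known classes and summit shifts.

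Genes were named by rank: 10 gene-end sites and 3 sites anywhere per class, 6 gene-end sites leaning furthest to each protein, up to 3 list members per class, and all genes of cohesin. Unnamed predicted genes were left out. The comparison, gene lists and tests were chosen with earlier results of these data known. Alternatives were a -log10 q of at least 5, 20000 peaks per list, 3 other ways to match or rank peaks, 2 kb gene ends, summit distances of single matches in the upper part of both lists, CTCF or STAG1 lists of both states, a replicate block and each library left out. Added after seeing the data were another motif spelling and a 100 bp summit limit.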

Additional observations from a re-analysis of the deposited data

How the results depend on the processing

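Of 161 values recomputed under alternatives, 2 changed sign and 17 counts or shares moved past the limit set for them (1.5 times for counts, the binomial interval of the share of promoters with the motif). The other 142 kept their sign or stayed within that limit, but differences among them could change in size, such as that in shares with the other protein, which was 0.445 points with 20000 peaks in every list. With 20000 peaks in every list there were 11024 shared sites, 3506 CTCF sites without STAG1, 3782 shared sites leaning to STAG1 and 3340 leaning to CTCF, and the gene-end difference of STAG1 peaks became 8.002 points; shorter lists hold fewer sites by construction. Leaving out 1 library gave 4469 to 15027 STAG1 sites without CTCF and 14590 to 20977 CTCF sites without STAG1. The sets leaning to STAG1 and to CTCF held 10723 to 12437 and 9787 to 11430 sites, and the difference in shares with the other protein ran from -0.320 to 23.7 points. The share of shared promoters holding the CTCF core was 9.81% when peaks needed a -log10 q of 5, 15.7% at 20000 peaks and 8.07% with the other spelling.

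The labels give both antibodies replicate numbers 1 and 2 without saying what a number marks. Over 25215 shared sites the differences in log2 fold between the replicates of STAG1 and those of CTCF had a correlation of 0.394. With the replicate block there were 12990 STAG1 sites without CTCF, 24337 CTCF sites without STAG1 and a motif share of 8.28%, averaged over the 2 numbers; 1 library of each protein then defines a site. The block gives no value for summit distances or ranks, which need both replicates. No test could reach 0.05 with 2 libraries per group, and no depth is known.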
